A study of Mus musculus with 14 samples.

Results

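Lungs of mice given a fired, recycled carbon fibre were compared with lungs of mice given the fibre before recycling. The comparison took 6 of the 14 arrays of the series, the 3 whose titles name RCF (fibre after firing) and the 3 whose titles name VCF (fibre before recycling), and was made over all genes directly, not through the control group. All mice were male C57BL/6N, with no genetic change in the labels, and each fibre was given into the trachea in a dose of 200 µg per mouse, with whole lung taken 1 month later. The fit shared its spread with 5 control mice given the vehicle, phosphate-buffered saline, and with 3 mice given CCF (fibre after carbonization). The labels call the samples of a group independent. Carbon fibre reinforced plastic is recycled by heating it until the resin between the fibres is lost.

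A fibre that reaches the alveoli is met by alveolar macrophages. Material that they cannot clear can keep neutrophils and monocyte-derived macrophages in the tissue, with release of osteopontin, chemokines and proteases. Epithelial and endothelial cells that are lost are replaced by division, which is read in the RNA of mitotic genes. Fibroblasts lay down collagen where injury lasts. RNA of whole lung mixes all of these cells with blood and with any tissue cut along with the lung. A lower level of a cell type's genes can therefore mean fewer such cells or less RNA in each, and these data cannot tell them apart.

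Each value below is log2 of an array's processed signal minus that array's 75th percentile, so that 0 is the 75th percentile of the array and 1 unit is a doubling. The tissue label held on these arrays: 8 of 8 lung markers passed the background filter, were above background on all 6 arrays and had group means within 1 unit of each other. Sftpc, the surfactant protein of alveolar type 2 cells, lay at 8.33, 7.73 and 8.17 in RCF 1 to 3 and at 9.78, 7.61 and 7.78 in VCF 1 to 3. RCF 1 and VCF 1 were dim, with a 75th percentile of 6.25 and 4.78 times the negative control spots, against 20.1 to 59.6 on the other 4 arrays. RCF 1 shared slide 1 with VCF 1 and VCF 2, while VCF 3 stood on slide 2 and RCF 2 and 3 on slide 3, which was scanned on another day. The rest of each group therefore cannot be told apart from its slide.

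RCF 1 and RCF 2 were closer to each other in the genes of neighbouring tissues than any other arrays of the series, which touches every result. Over 84 genes of neighbouring tissues, blood and urinary proteins, which vary with how a lung is cut out, their median absolute difference was 0.21, against 1.09 and 0.99 between either array and RCF 3 and 0.70 to 0.79 among VCF arrays. These 84 genes were chosen from measured values. Control 1 and control 4 were nearly as close, at 0.24, and the closest arrays of different groups stood at 0.34. Over 13519 bright genes RCF 1 and RCF 2 differed by 0.19 and RCF 2 and RCF 3 by 0.13. Whether 1 RNA was hybridised on both arrays cannot be told from the labels, and the main results are therefore also given with RCF 1 and RCF 2 averaged as 1 sample and without both.

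The tissue genes that RCF 1 and RCF 2 shared included those of liver. Alb, the serum albumin of hepatocytes, lay at 1.83 and 1.70 in RCF 1 and 2, at −2.71 in RCF 3 and at −3.45, −3.83 and −4.04 in VCF. Mup19, a urinary protein that liver secretes, lay at 4.57 and 4.31 in RCF 1 and 2, at −2.05 in RCF 3 and at −5.75, −6.55 and −6.36 in VCF, where it was not above background. RCF 3 also lay above every VCF array for both genes. The median of the 14 measured liver genes was 3.12, 3.10 and 0.29 in RCF against 0.39, −0.26 and −0.28 in VCF, relative to the control mean. Their part in the differences below was not tested, and the liver median of RCF minus VCF was 2.30 over all arrays and 0.53 without RCF 1 and RCF 2.

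**Figure D1:**
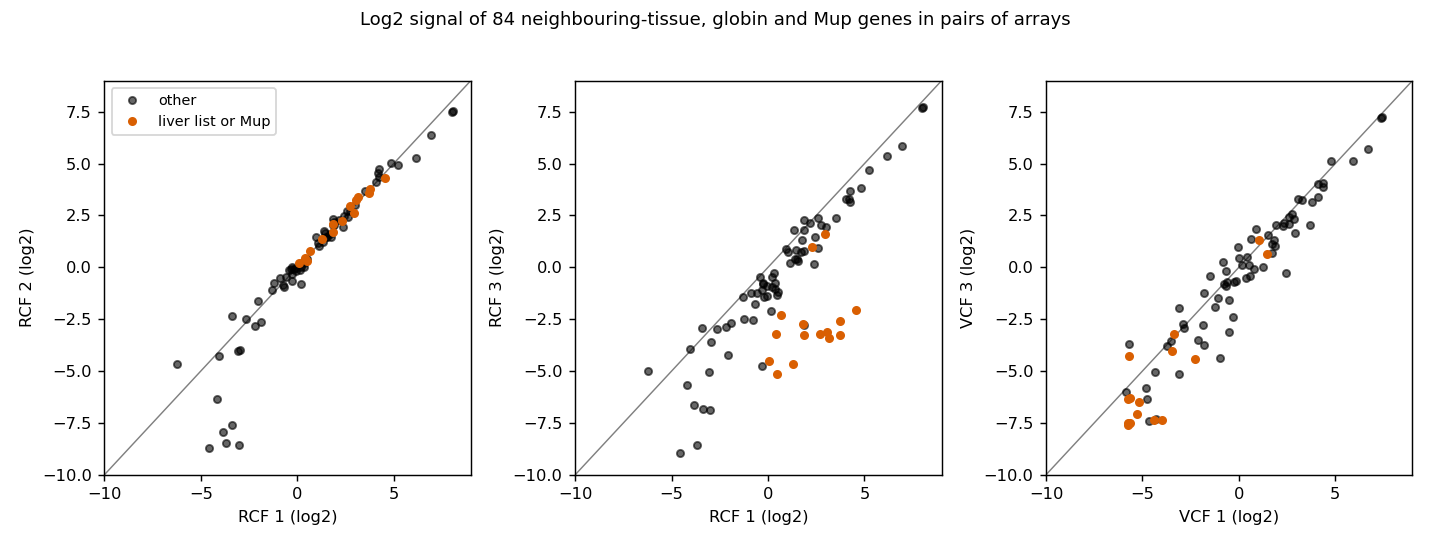
Each panel sets the log2 levels of the neighbouring tissue, globin and urinary protein genes in 1 array (x axis) against another (y axis), with liver and major urinary protein genes in orange and the line of equal values drawn. RCF 1 and RCF 2 (median absolute difference 0.21) lie along the line, while RCF 1 and RCF 3 (1.09) and the VCF arrays shown do not.

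Across the 30574 genes tested, 3 rose in RCF against VCF at a Benjamini-Hochberg adjusted p under 0.05 in limma and 0 fell, which is 0.00981% of the genes. An unadjusted p under 0.05, called the unadjusted threshold below, was met by 2766 genes (9.05%), 1885 higher (6.17%) and 881 lower (2.88%). Counts of list members given as higher or lower are at this threshold. For genes with a symbol, of which the lists below are made, the shares were 7.68% higher and 2.82% lower. The 3 RCF arrays all lay above the 3 VCF arrays for 10.5% of genes and all below for 4.99%, or 13.3% and 5.19% of genes with a symbol. Against control, 0.154% of genes passed at an adjusted p under 0.05 in RCF and 0.085% in VCF. The median difference was 0.06 over all genes and 0.07 over genes with a symbol. Differences below are RCF minus VCF on the log2 scale, with the standard error of the fit in limma (±, n = 3 against 3 arrays), unless another group is named.

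The genes that rose were Ces2e, Kif20a and Adgre4. Ces2e encodes a carboxylesterase, which splits esters of drugs and lipids. It lay at −0.48, −0.65 and −0.82 in RCF 1 to 3 and at −2.21, −1.95 and −1.86 in VCF 1 to 3. The 5 controls lay between −0.97 and −0.71, overlapping the RCF arrays at their lower end and above every VCF array. The rise was 1.36 ± 0.15 (2.57-fold, limma adjusted p = 0.0284). Against control RCF stood at 0.18 and VCF at −1.18 (limma adjusted p = 0.0200 for VCF). The control arrays are shared by both of these values.

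Kif20a encodes a kinesin motor of the spindle midzone that cells need to divide. It lay at −2.13, −2.08 and −2.34 in RCF and at −3.58, −3.64 and −3.32 in VCF, where 2 of 3 arrays were above background. Controls lay from −2.66 to −2.27, close to RCF and above VCF. The rise was 1.33 ± 0.15 (2.52-fold, limma adjusted p = 0.0295), with RCF at 0.27 and VCF at −1.06 against control. With normexp background correction and quantile scaling the difference was 0.71 (adjusted p = 0.150).

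Adgre4 encodes an adhesion receptor of myeloid cells, of the same family as the macrophage marker Adgre1. Its levels were −1.23, −1.20 and −1.36 in RCF and −2.81, −2.65 and −2.52 in VCF. The controls, from −2.36 to −1.88, lay between both groups and overlapped neither. The rise was 1.40 ± 0.17 (2.63-fold, limma adjusted p = 0.0402), made up of 0.81 ± 0.16 in RCF and −0.59 ± 0.16 in VCF against control. Neither of these parts passed (adjusted p = 0.0719 and 0.194).

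The sign of all 3 differences was the same under each of the 24 alternative settings, which groups without overlap largely fix, but the calls were not. With replicate number as a block no gene passed (adjusted p = 0.210 for each of the 3 genes). With slide as a fixed block Ces2e and Kif20a kept the call at 1.44 and 1.41 (adjusted p = 0.0327 and 0.0234), and Adgre4 stood at 1.34 (adjusted p = 0.0851). Within slide 1, RCF 1 lay above the mean of VCF 1 and 2 by 1.60, 1.48 and 1.50 for Ces2e, Kif20a and Adgre4. With RCF 1 and RCF 2 averaged the adjusted p was 0.183, 0.183 and 0.227, and without both arrays 0.484, 0.503 and 0.503.

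Ces2e and Adgre4 are shown with the 250 bases before their RefSeq start (GRCm38.p6, in the direction of the gene), because they carry the call. Ces2e lies at chr8:104926010-104926259 on the plus strand and Adgre4 at chr17:55749734-55749983 on the plus strand. Capitals mark matches to CCAAT and TTTGAA on either strand, explained with the mitotic genes below; Ces2e holds 1 match to TTTGAA and Adgre4 none to either.
Ces2e: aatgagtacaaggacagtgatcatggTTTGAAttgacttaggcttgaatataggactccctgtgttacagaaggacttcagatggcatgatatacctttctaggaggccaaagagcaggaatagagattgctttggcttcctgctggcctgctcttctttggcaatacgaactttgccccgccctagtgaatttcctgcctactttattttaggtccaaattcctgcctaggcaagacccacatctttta
Adgre4: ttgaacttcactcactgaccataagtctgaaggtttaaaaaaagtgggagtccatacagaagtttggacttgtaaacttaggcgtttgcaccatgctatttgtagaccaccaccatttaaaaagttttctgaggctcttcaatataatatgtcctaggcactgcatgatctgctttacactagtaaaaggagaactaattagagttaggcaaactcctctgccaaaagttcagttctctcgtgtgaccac

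Other carboxylesterases of the Ces2 cluster stood on the same side as Ces2e. Ces2b lay at −1.68, −1.66 and −1.48 in RCF and −2.69, −2.51 and −2.75 in VCF, a difference of 1.05 ± 0.15 (limma adjusted p = 0.0868). Ces2c stood at 0.86 ± 0.29, Ces2g at 0.39 ± 0.25 and Ces2a at 0.29 ± 0.54, the last a gene of low signal. Probes for close copies can share signal through cross-hybridisation. Ces1g, a carboxylesterase of the neighbouring subfamily that acts on lipids, stood at 0.99 ± 0.30. Whether the liver transcripts in RCF 1 and RCF 2 have a part in these carboxylesterase values was not tested.

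Nearest to the threshold on the higher side were 9 further genes, taken in order of p among those with no overlap between groups; none passed, and the lack of overlap is part of how they were chosen. Mki67, the chromosome coat protein used as a proliferation marker, lay at 0.20, 0.09 and −0.08 in RCF and −0.84, −1.10 and −0.94 in VCF, a difference of 1.03 ± 0.17 (adjusted p = 0.0966). Shcbp1, a protein of the dividing cell's midbody, was above background on 2 of 3 RCF arrays and on no VCF array. It stood at least 1.44-fold higher in RCF. Its RCF values of −4.34, −3.85 and −4.08 lay under the lowest level above background on VCF 1 (−3.55). VCF 1 could therefore not show a lower level. Tlr12, a receptor of innate immune cells for microbial profilin, lay at 1.16, 1.09 and 0.88 in RCF and −0.24, −0.45 and 0.15 in VCF (1.22 ± 0.18, adjusted p = 0.0868). For each of these genes every RCF array lay above every VCF array. Against control Mki67 stood at 0.06 in RCF and −0.97 in VCF, and Shcbp1 at 0.12 and −1.16. For both genes RCF thus lay near control and VCF below it.

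Cthrc1, a secreted protein of collagen-making fibroblasts, lay at −0.26, −0.15 and −0.19 in RCF and −1.74, −1.27 and −1.22 in VCF (1.21 ± 0.19). Crabp1, which binds retinoic acid in the cytoplasm, lay at −3.54, −2.73 and −2.42 in RCF and −4.89, −4.62 and −4.23 in VCF (1.68 ± 0.26), with 2 of 3 VCF arrays above background, and its other probe stood at 0.90. Scn3b, a subunit of sodium channels, lay at 4.09, 4.06 and 3.96 in RCF and 2.41, 2.55 and 3.13 in VCF (1.34 ± 0.21). Hpcal4, a calcium sensor of neurons, stood at 1.27 ± 0.17 and Pole, the catalytic subunit of DNA polymerase epsilon, at 0.99 ± 0.17. VCF 3 was the VCF array nearest to RCF for Scn3b and Tlr12.

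On the lower side 12 genes were taken by the same rule and none passed. Stfa1, a stefin that inhibits cysteine proteases in neutrophils, lay at −2.55, −2.38 and −3.94 in RCF and −0.82, 0.05 and −0.18 in VCF, a difference of −2.64 ± 0.41 (limma adjusted p = 0.0868). Spp1, the secreted osteopontin of macrophages and injured epithelium, lay at 3.50, 3.42 and 3.59 in RCF and 4.69, 5.42 and 4.48 in VCF (−1.36 ± 0.27, adjusted p = 0.176). Its control mean was close to RCF, with RCF at 0.21 and VCF at 1.57 against control. No RCF array reached a VCF array for Spp1, and VCF 2 was the highest of the 6.

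Cdkn1a, the p21 inhibitor of the cell cycle, lay at 0.26, 0.38 and 0.36 in RCF and 1.79, 1.91 and 1.61 in VCF (−1.44 ± 0.30, adjusted p = 0.179), but its other probe stood at 0.15, on the opposite side. Fst, follistatin, which binds activin, lay at −3.22, −2.89 and −2.78 in RCF and −1.53, −0.70 and −1.07 in VCF (−1.87 ± 0.39). Adm, the vasodilator peptide adrenomedullin, lay at −1.88, −1.88 and −1.65 in RCF and −0.88, −0.54 and −0.93 in VCF (−1.02 ± 0.19). These 3 genes lay lower in every RCF array than in every VCF array.

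Liph, a lipase of epithelia, stood at −0.95 ± 0.21, and Pmvk, an enzyme of the mevalonate pathway, at −0.88 ± 0.19. The transcription factor gene Foxo3 stood at −0.89 ± 0.14, with 2 of 3 arrays above background in each group and its other probe at −0.16. Upf1, a helicase of nonsense-mediated RNA decay, stood at −0.72 ± 0.15. Galnt15, a glycosyltransferase gene, stood at −1.70 ± 0.37 and Ehf, an epithelial transcription factor gene, at −1.06 ± 0.23, with 2 of the 3 other probes of Ehf on the opposite side. For Galnt15 and Ehf it was RCF that lay away from control, at −1.32 and −0.999, while VCF stood at 0.38 and 0.06. Over the 24 genes so named, 573 of 573 values under alternative settings kept the sign, which their lack of overlap largely fixes.

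Genes of mitosis stood higher in RCF than in VCF as a group. Mitotic genes are made in the last part of the cell cycle, when chromosomes condense and are pulled apart, and their RNA is low in resting lung. Of 33 measured members, 1 (Kif20a) rose over all genes. At the unadjusted threshold 20 (60.6%) were higher and 0 lower, against 7.68% and 2.82% of genes with a symbol. The median difference was 0.76, against 0.06 over all genes. By array the list median, relative to control, was 0.18, 0.00 and −0.23 in RCF 1 to 3 and −0.92, −0.98 and −0.64 in VCF 1 to 3, with no overlap between the groups. RCF lay near control (0.03) and VCF below it (−0.88).

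Ckap2, a spindle microtubule protein, lay at −2.24, −2.30 and −2.32 in RCF and −4.30, −3.70 and −3.30 in VCF (1.48 ± 0.26). Ube2c, the ubiquitin carrier of the anaphase-promoting complex, lay at −2.23, −2.49 and −2.79 in RCF and −4.36, −3.76 and −3.25 in VCF (1.29 ± 0.35). Prc1, which bundles midzone microtubules, lay at −1.21, −1.31 and −1.33 in RCF and −2.31, −2.41 and −2.07 in VCF (0.98 ± 0.19). In each of them RCF lay above VCF on every array. Ckap2 and Ube2c were above background on 2 of 3 VCF arrays, so that the size of their differences rests in part on a level not measured above background.

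Cyclin genes of the G2 phase showed smaller differences, with Ccna2 at 0.76 ± 0.19 and Ccnb1 at 0.79 ± 0.25. Ccnb1 and Cdca3 were above background on 2 of 3 VCF arrays. Cdca3, which triggers entry into mitosis, stood at 0.96 ± 0.18, and Foxm1, the transcription factor that drives many of these genes, at 0.75 ± 0.24. Birc5, the survivin of the chromosomal passenger complex, stood at 0.66 ± 0.19 and Top2a, which untangles DNA, at 0.68 ± 0.30. Other members did not differ at an unadjusted p of 0.05: the kinase genes Plk1 and Aurka stood at 0.19 ± 0.20 and 0.28 ± 0.20, Cdc20, an activator of the anaphase-promoting complex, at 0.27 ± 0.17, the checkpoint gene Bub1b at −0.14 ± 0.26 and the kinesin gene Kif23 at −0.10 ± 0.22.

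The direction of the mitotic list was the same in 24 of 24 alternatives, from 0.41 to 1.13, with 9 to 27 members higher at an unadjusted p under 0.05. Slide as a fixed block gave a median of 1.13 (27 higher), and slide 1 alone gave 1.08. It was 0.75 with RCF 1 and RCF 2 averaged (16 higher), 0.56 without both (9 higher) and 0.41 with normexp and quantile scaling (13 higher).

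**Figure D2:**
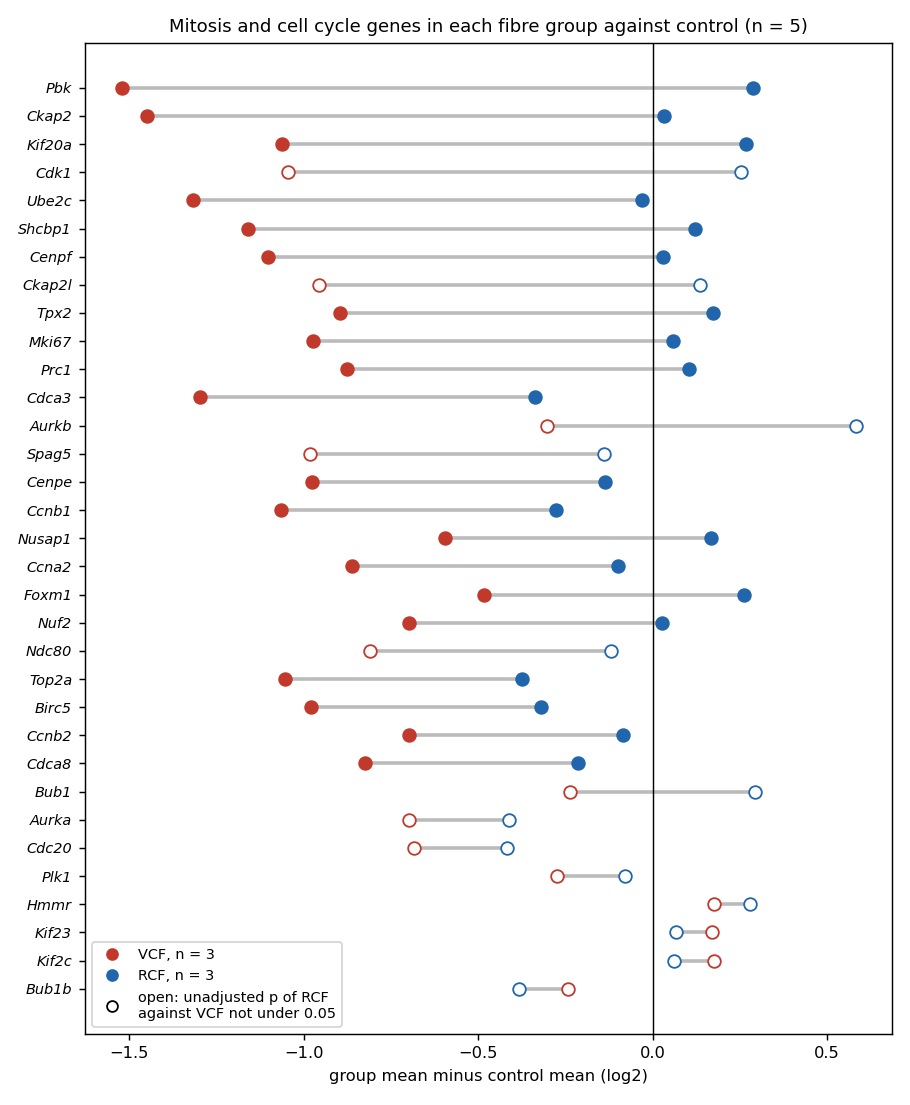
For each gene of the mitosis list the x axis gives the difference from the control mean in log2, for RCF and for VCF, joined by a line; filled points mark an unadjusted p under 0.05 for RCF against VCF and open points mark the others. RCF points lie about 0 (median 0.03) and VCF points lie to the left (median −0.88).

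Genes of DNA replication stood in the same direction with smaller differences. Of 24 members 9 (37.5%) were higher and 0 lower at the unadjusted threshold, against 7.68% and 2.82% of genes with a symbol. Their median was 0.32. Ccne1, the cyclin that opens S phase, lay at −1.96, −1.80 and −1.92 in RCF and −2.58, −2.59 and −2.52 in VCF (0.67 ± 0.13). Cdc6, which loads the helicase on origins, stood at 0.57 ± 0.16 and Tk1, a thymidine kinase, at 0.63 ± 0.19. The helicase subunits Mcm4 and Mcm7 stood at 0.06 each. The count of higher members was 5 without RCF 3, 4 without VCF 1 and 2 without RCF 1 and 2.

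The promoters of 3 mitotic genes are shown because members of the list stood higher together. Cell cycle promoters are known for CCAAT boxes, bound by NF-Y, and for the CHR element TTTGAA, bound by the DREAM and MuvB complexes. Matches to CCAAT or its reverse complement ATTGG, and to TTTGAA or its reverse complement TTCAAA, are in capitals, on the 250 bases before the RefSeq start (GRCm38.p6); the CCAAT match and its reverse complement overlap in Ube2c, where CCAATTGG counts once for each strand. Mki67 lies at chr7:135716380-135716629 (minus strand), Ckap2 at chr8:22185820-22186069 (minus strand) and Ube2c at chr2:164769679-164769928 (plus strand). Kif20a is named without sequence.
Mki67: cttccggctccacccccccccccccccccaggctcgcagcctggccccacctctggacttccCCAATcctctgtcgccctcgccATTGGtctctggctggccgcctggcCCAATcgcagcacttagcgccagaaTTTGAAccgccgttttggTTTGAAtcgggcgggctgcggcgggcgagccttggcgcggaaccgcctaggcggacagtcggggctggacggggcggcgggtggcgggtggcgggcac
Ckap2: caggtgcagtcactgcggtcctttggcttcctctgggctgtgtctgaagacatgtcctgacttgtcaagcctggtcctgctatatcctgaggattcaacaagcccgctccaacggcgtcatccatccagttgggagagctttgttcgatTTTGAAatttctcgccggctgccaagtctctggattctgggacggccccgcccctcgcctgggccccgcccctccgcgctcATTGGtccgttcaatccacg
Ube2c: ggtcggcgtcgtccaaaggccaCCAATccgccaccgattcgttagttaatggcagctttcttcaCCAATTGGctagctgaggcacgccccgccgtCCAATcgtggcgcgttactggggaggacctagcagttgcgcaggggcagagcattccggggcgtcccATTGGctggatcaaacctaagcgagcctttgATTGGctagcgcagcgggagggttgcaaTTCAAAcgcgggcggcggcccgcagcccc

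The Mki67 window held 3 matches to CCAAT and 2 to TTTGAA, that of Ckap2 1 and 1 and that of Ube2c 6 and 1. Of 35 mitotic genes listed 28 had a promoter in the table, with 29 windows. CCAAT was in 24 of these windows (82.8%), at least 2 matches to it in 15 (51.7%) and TTTGAA in 11 (37.9%). Over all 32851 windows of the same length the shares were 33.8%, 10.1% and 16.0%. For DNA replication genes, with 22 windows, they were 68.2%, 31.8% and 9.09%. Such matches describe the letters of a window and were not tested against the arrays.

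Genes of neutrophils stood lower in RCF than in VCF, with the stefins in front. Of 28 measured neutrophil genes 0 passed over all genes. At the unadjusted threshold 12 (42.9%) were lower and 1 higher, against 2.82% and 7.68% of genes with a symbol. Of the 28 differences 26 were negative, against 7030 of 17288 among genes with a symbol. The 28 include stefins whose probes can share signal. The median difference was −1.01. By array the list median, relative to control, was 0.49, 0.31 and −0.77 in RCF and 0.68, 1.41 and 1.03 in VCF. RCF 3 lay below the other 5 arrays, and RCF 1 was close to VCF 1.

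Stfa2 lay at −0.39, −0.28 and −2.20 in RCF and 0.71, 1.47 and 1.31 in VCF (−2.12 ± 0.48), and Stfa2l1 at −0.23, −0.32 and −2.28 in RCF and 0.54, 1.94 and 1.58 in VCF (−2.30 ± 0.51). Cstdc4, a further stefin A gene, lay at −0.89, −0.75 and −2.37 in RCF and 0.18, 1.42 and 1.11 in VCF (−2.24 ± 0.42, limma adjusted p = 0.161). All of these stefins shared the order of arrays, with RCF 3 lowest, RCF 1 and 2 next and VCF 2 highest. Cstdc5 and Stfa3 stood at −1.90 ± 0.81 and −1.90 ± 1.37. Cstdc2, of the same family, stood on the other side at 0.41 ± 0.27.

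Retnlg, a resistin-like secreted protein of granulocytes, lay at 1.80, 2.22 and 1.51 in RCF and 2.39, 3.66 and 3.25 in VCF (−1.26 ± 0.34). S100a8, a subunit of calprotectin, lay at 4.98, 5.08 and 3.49 in RCF and 5.11, 5.81 and 5.34 in VCF (−0.90 ± 0.40), and its partner S100a9 stood at −0.77 ± 0.33. Mmp8, the neutrophil collagenase, stood at −1.11 ± 0.35 and Cxcr2, the receptor for chemokines that draw neutrophils, at −1.38 ± 0.59. Lcn2, a siderophore-binding protein of granules and epithelium, stood at −0.01 ± 0.23 and Mpo, myeloperoxidase, at −0.12 ± 1.15. The fit of Elane, neutrophil elastase, had no value from RCF 3.

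The size of the neutrophil difference depended on single arrays while its sign was the same in 24 of 24 alternatives. Without RCF 3 the median was −0.49 with 6 members lower, and without VCF 2 it was −0.75 with 6 lower. Slide as a fixed block gave −0.72 (7 lower), and slide 1 alone gave −0.40. With RCF 1 and RCF 2 averaged it was −1.19 (11 lower) and without both −1.73 (14 lower).

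**Figure D3:**
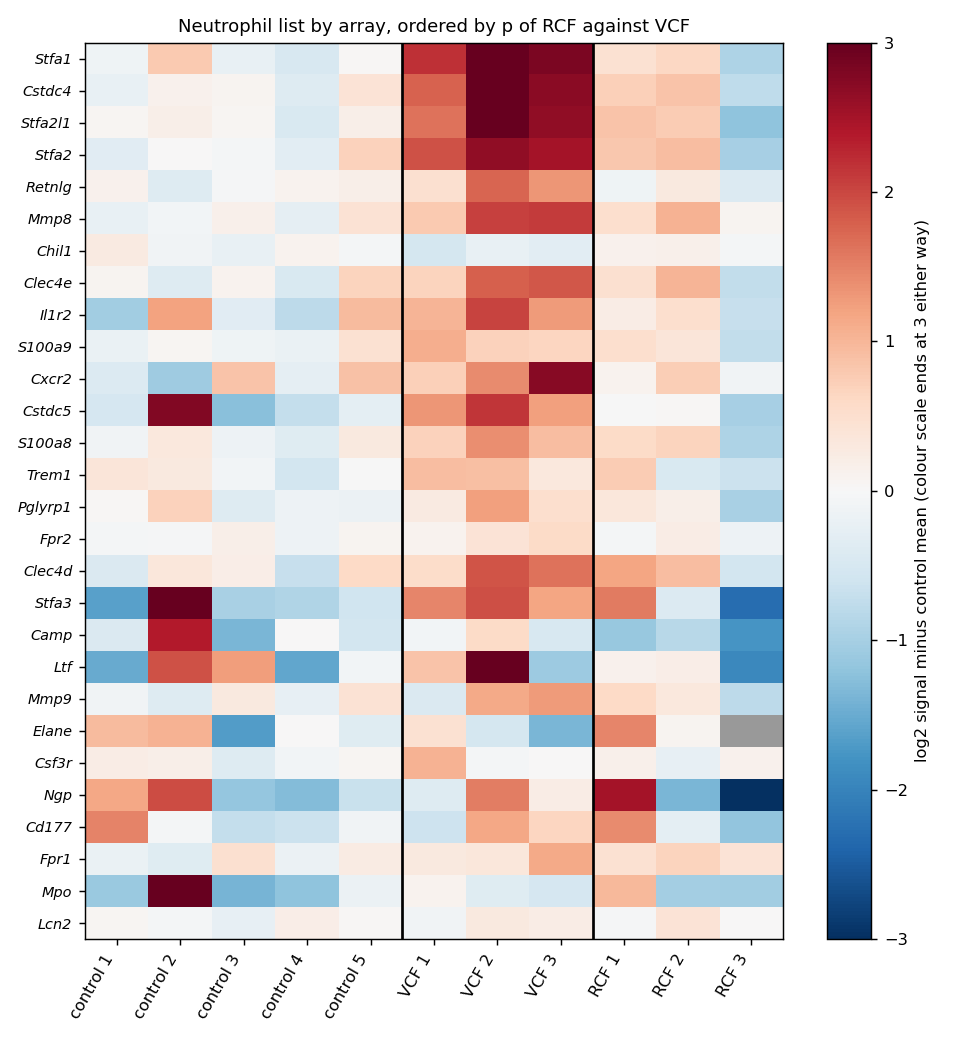
Rows are the measured neutrophil genes, columns the 3 RCF, 3 VCF and 5 control arrays, and colour the log2 level minus the control mean (grey, no value). The rows of Stfa1, Stfa2 and Stfa2l1 are highest in VCF 2 and 3 and lowest in RCF 3, and the list medians of these arrays are 1.41, 1.03 and −0.77.

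The stefins that led the list lie in 1 gene cluster, and their promoters are shown to let their likeness be seen. They are the 250 bases before the RefSeq start (GRCm38.p6): Stfa1 at chr16:36276898-36277147 (plus strand), Stfa2 at chr16:36408364-36408613 (minus strand) and Stfa2l1 at chr16:36156561-36156810 (plus strand). In a global alignment Stfa1 shared 81.4% of positions with Stfa2 and 81.2% with Stfa2l1, and Stfa2 shared 89.4% with Stfa2l1. The promoter of Cstdc4 shared less with them, at 73.3%, 70.8% and 73.7% with Stfa1, Stfa2 and Stfa2l1, and those of Mki67 and Ces2e shared 46.0%. Probes for close gene copies can also bind each other's RNA, so that these genes may not be separate measurements. Promoter likeness does not show this, and probe sequences were not examined. Capitals mark the single match to CCAAT, on the other strand, in each window; over the 29 windows of neutrophil genes it was in 55.2%.
Stfa1: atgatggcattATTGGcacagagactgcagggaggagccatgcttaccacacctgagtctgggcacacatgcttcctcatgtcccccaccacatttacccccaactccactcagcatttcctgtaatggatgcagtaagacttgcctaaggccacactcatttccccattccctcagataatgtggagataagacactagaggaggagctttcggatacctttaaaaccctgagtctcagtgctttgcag
Stfa2: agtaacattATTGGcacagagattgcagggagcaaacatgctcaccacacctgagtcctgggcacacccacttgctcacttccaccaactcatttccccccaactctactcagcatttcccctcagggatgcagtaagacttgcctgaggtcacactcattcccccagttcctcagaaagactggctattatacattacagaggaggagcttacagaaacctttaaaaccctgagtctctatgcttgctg
Stfa2l1: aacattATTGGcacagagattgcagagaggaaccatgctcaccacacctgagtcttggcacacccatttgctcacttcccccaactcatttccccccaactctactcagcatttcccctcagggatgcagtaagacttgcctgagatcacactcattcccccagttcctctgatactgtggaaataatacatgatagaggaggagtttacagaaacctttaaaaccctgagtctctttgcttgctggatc

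Genes of red blood cells stood higher in RCF. Of 18 erythroid genes 10 (55.6%) were higher and 0 lower at the unadjusted threshold, against 7.68% and 2.82% of genes with a symbol. None passed over all genes. The median was 0.75, with RCF at −0.02 and VCF at −0.92 against control. Hbb-b2, a beta-globin, lay at 5.24, 4.92 and 4.69 in RCF and 3.08, 2.59 and 3.29 in VCF (1.96 ± 0.42), and Hbb-bt, a near-identical copy that can share its signal, stood at 1.69 ± 0.50. Car2, carbonic anhydrase of red cells, stood at 0.78 ± 0.20. Alas2, the first enzyme of haem synthesis in red cells, stood at 1.52 ± 0.68 and Slc4a1, the band 3 anion exchanger, above background on 1 of 3 VCF arrays, at 1.74 ± 0.74. The count of higher members was 6 without RCF 1, 5 without VCF 2, 6 with RCF 1 and RCF 2 averaged and 2 without both.

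Genes of endothelium were uneven. The median of 31 genes was 0.05, with 7 (22.6%) higher and 0 lower at the unadjusted threshold. Among genes with a symbol 7.68% were higher and 2.82% lower. Plvap, which forms the diaphragms of endothelial pores, lay at 4.64, 4.28 and 4.40 in RCF and 3.51, 3.26 and 3.49 in VCF (1.02 ± 0.19, limma adjusted p = 0.160). Its level in RCF was near control (−0.13) and in VCF below it (−1.14, adjusted p = 0.0462 in limma). Apln, the apelin peptide of sprouting vessels, lay at 1.67, 1.42 and 1.44 in RCF and −0.25, −0.30 and 0.93 in VCF (1.39 ± 0.32). Vcam1, an adhesion molecule for leukocytes, stood at 0.59 ± 0.15 and Car4, a carbonic anhydrase of lung capillaries, at 0.48 ± 0.14. Sema3e, a guidance signal for vessels that is on the alveolar type 1 list, stood at 0.62 ± 0.16.

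Genes of the extracellular matrix stood higher in RCF. Of 45 genes 13 (28.9%) were higher and 1 lower at the unadjusted threshold, against 7.68% and 2.82% of genes with a symbol. None passed over all genes. The median was 0.37, with RCF at 0.15 and VCF at −0.17 against control. Col3a1, a fibrillar collagen, lay at 3.80, 3.84 and 4.28 in RCF and 2.65, 2.28 and 2.99 in VCF (1.34 ± 0.25), and VCF stood at −1.31 against control. Col1a1, the main fibrillar collagen, lay at 2.90, 3.09 and 3.41 in RCF and 2.26, 1.87 and 2.05 in VCF (1.08 ± 0.29). For both collagens each RCF array lay above each VCF array.

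Col6a3, a microfibril collagen, stood at 0.83 ± 0.24, Fbln5, which guides elastic fibres, at 0.54 ± 0.14 and Postn, periostin, at 0.56 ± 0.23. Tgfb1, the growth factor that drives matrix synthesis, stood at 0.46 ± 0.19. The member that was lower was Spp1, given above. Col1a2, the partner chain of Col1a1, stood at 0.43 ± 0.35, fibronectin (Fn1) at 0.24 ± 0.18 and the smooth muscle actin Acta2 at −0.05 ± 0.32. Without RCF 1 or without VCF 2 the count of higher members was 7, with RCF 1 and RCF 2 averaged it was 9 and without both it was 6.

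Genes of monocytes and interstitial macrophages split. Of 25 genes 9 (36.0%) were higher and 3 lower at the unadjusted threshold, against 7.68% and 2.82% of genes with a symbol. Their median was 0.29. Ccr2, the receptor by which monocytes enter tissue, lay at 0.09, 0.83 and 0.08 in RCF and −0.57, −0.81 and −0.99 in VCF (1.12 ± 0.31). Other higher members were Cx3cr1, the fractalkine receptor, at 0.82 ± 0.24, Spn, leukosialin, at 0.69 ± 0.17 and the receptor gene Treml4 at 0.72 ± 0.23. The lower members were Cd14, the coreceptor for endotoxin, at −0.44 ± 0.15, Ly6c2, a surface protein of inflammatory monocytes, at −0.40 ± 0.12 and its neighbour Ly6c1, which is also a gene of endothelium. The counts were 5 higher and 3 lower without VCF 1, 6 and 2 with RCF 1 and RCF 2 averaged, and 2 and 1 without both. The median was 0.16 without RCF 3.

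Of 27 alveolar macrophage genes 5 were higher and 0 lower, against 7.68% and 2.82% of genes with a symbol. Their median was 0.26, and 2 were higher without RCF 3. The list of lipid and particle laden macrophages stood at 0.12, with 2 of 24 higher and 1 lower, the lower one being Spp1.

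Of 31 interferon-stimulated genes 7 (22.6%) were higher and 0 lower, against 7.68% and 2.82% of genes with a symbol. Their median was 0.34. Ifi44, an interferon-induced gene, lay at −1.26, −1.14 and −1.01 in RCF and −2.57, −2.50 and −2.27 in VCF (1.31 ± 0.24, limma adjusted p = 0.160). Ifih1, the sensor of viral RNA, stood at 0.50 ± 0.13 and Irf7, the amplifier of type I interferon, at 0.53 ± 0.20. The count of higher members was 4 without RCF 2, 2 without VCF 1, 13 without VCF 3, 6 with RCF 1 and RCF 2 averaged and 3 without both.

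Lymphocyte lists were uneven against the shares of genes with a symbol, 7.68% higher and 2.82% lower. The T cell list and the NK and cytotoxic cell list held more higher members than that share. Of 25 T cell genes 4 were higher and 0 lower at the unadjusted threshold (median 0.27, or 0.10 without VCF 1). Cd8a, the coreceptor of cytotoxic T cells, lay at −1.89, −2.17 and −1.63 in RCF and −2.77, −2.54 and −2.63 in VCF (0.75 ± 0.17). Of 19 genes of NK and cytotoxic cells 5 were higher and 0 lower, but 1 without RCF 3 and 0 without VCF 1. Of 22 B cell and plasma cell genes 0 passed in either direction, at a median of 0.11. For genes of type 2 immunity and mucus 4 of 19 were higher and 0 lower.

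Epithelial lists showed small medians of opposite sign. Alveolar type 2 genes stood at 0.17 with 3 of 24 higher, and alveolar type 1 genes at 0.19 with 3 of 18 higher. In both lists 0 were lower at an unadjusted p under 0.05. Among genes with a symbol 7.68% were higher and 2.82% lower. Scd1, the desaturase that supplies unsaturated fatty acids, lay at 4.81, 4.67 and 4.47 in RCF and 3.12, 3.39 and 3.47 in VCF (1.32 ± 0.29), and Etv5, a transcription factor that keeps type 2 cells in their state, stood at 0.52 ± 0.13.

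Ciliated cell genes stood at −0.18 with 5 of 36 lower and 1 higher, against 2.82% and 7.68% of genes with a symbol. Without RCF 3, 1 was lower. Foxj1, the master regulator of motile cilia, stood at −0.56 ± 0.24 and Dnaic2, a dynein chain of the ciliary arm, at −0.65 ± 0.21, while Gmnc, which starts the ciliated programme, stood at 0.63 ± 0.25 with 2 of 3 VCF arrays above background. Of 30 genes of club and airway secretory cells 4 were lower and 2 higher, with a median of −0.11. The lower ones included Gsta3, a glutathione transferase, at −0.31 ± 0.11, and the higher ones were Ces2e and Ces1g.

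Among stress genes Cyp1a1, a cytochrome P450 that the aryl hydrocarbon receptor induces, lay at −1.20, −1.49 and −1.02 in RCF and −3.10, −3.65 and −3.88 in VCF (2.31 ± 0.59, limma adjusted p = 0.286). Of 10 measured genes of that receptor it was the 1 with an unadjusted p under 0.05. Hspa1a, the inducible chaperone, lay at 1.69, 1.58 and 1.07 in RCF and 3.10, 3.10 and 4.22 in VCF (−2.03 ± 0.67), and its cochaperone Dnajb1 stood at −0.99 ± 0.39. Of 24 heat shock genes 4 were lower and 0 higher, against 2.82% and 7.68% of genes with a symbol. Their median was −0.20, and 1 was lower without RCF 3 or without VCF 3. RCF and VCF did not overlap for Cyp1a1 or Hspa1a. Against control Cyp1a1 stood at 0.41 in RCF and −1.90 in VCF, and Hspa1a at 0.03 and 2.06. For both genes RCF thus lay nearer to control than VCF did. Neither VCF value passed (limma adjusted p = 0.223 and 0.243), and the controls of Hspa1a ran from −0.04 to 2.77.

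Of 19 clock genes 2 were higher and 2 lower, against 7.68% and 2.82% of genes with a symbol. The count of higher clock genes lay near that share. Dbp, an output gene of the clock, lay at 6.43, 5.94 and 6.05 in RCF and 4.54, 4.75 and 5.39 in VCF (1.25 ± 0.29), and Nr1d2, a repressor of the loop, stood at 0.82 ± 0.16. Arntl and Nfil3, which peak at the opposite time of day, stood at −0.96 ± 0.28 and −0.91 ± 0.31. Of 24 genes of metallothioneins and zinc transport 6 were higher and 2 lower. The zinc importers Slc39a6 and Slc39a10 stood at 0.45 ± 0.13 and 0.77 ± 0.29, and Mt1, metallothionein 1, at −0.71 ± 0.30.

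Several lists had small median differences. Among genes with a symbol 7.68% were higher and 2.82% lower. The ribosomal protein and respiratory chain lists lay under both shares, and the other lists given here lay over 1 of them or both. Of 42 ribosomal protein genes 1 was higher and 0 lower (median −0.03), and of 37 respiratory chain genes 1 was higher and 0 lower (median 0.01). Of 25 cholesterol synthesis genes 3 were higher and 2 lower (−0.04), of 36 genes of lysosome and proton pump 5 were higher and 0 lower (0.09) and of 28 genes of p53 and DNA damage 2 were higher and 3 lower (−0.09). Of 35 genes known from particle exposure 5 were higher and 3 lower, with a median of 0.02.

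**Figure D4:**
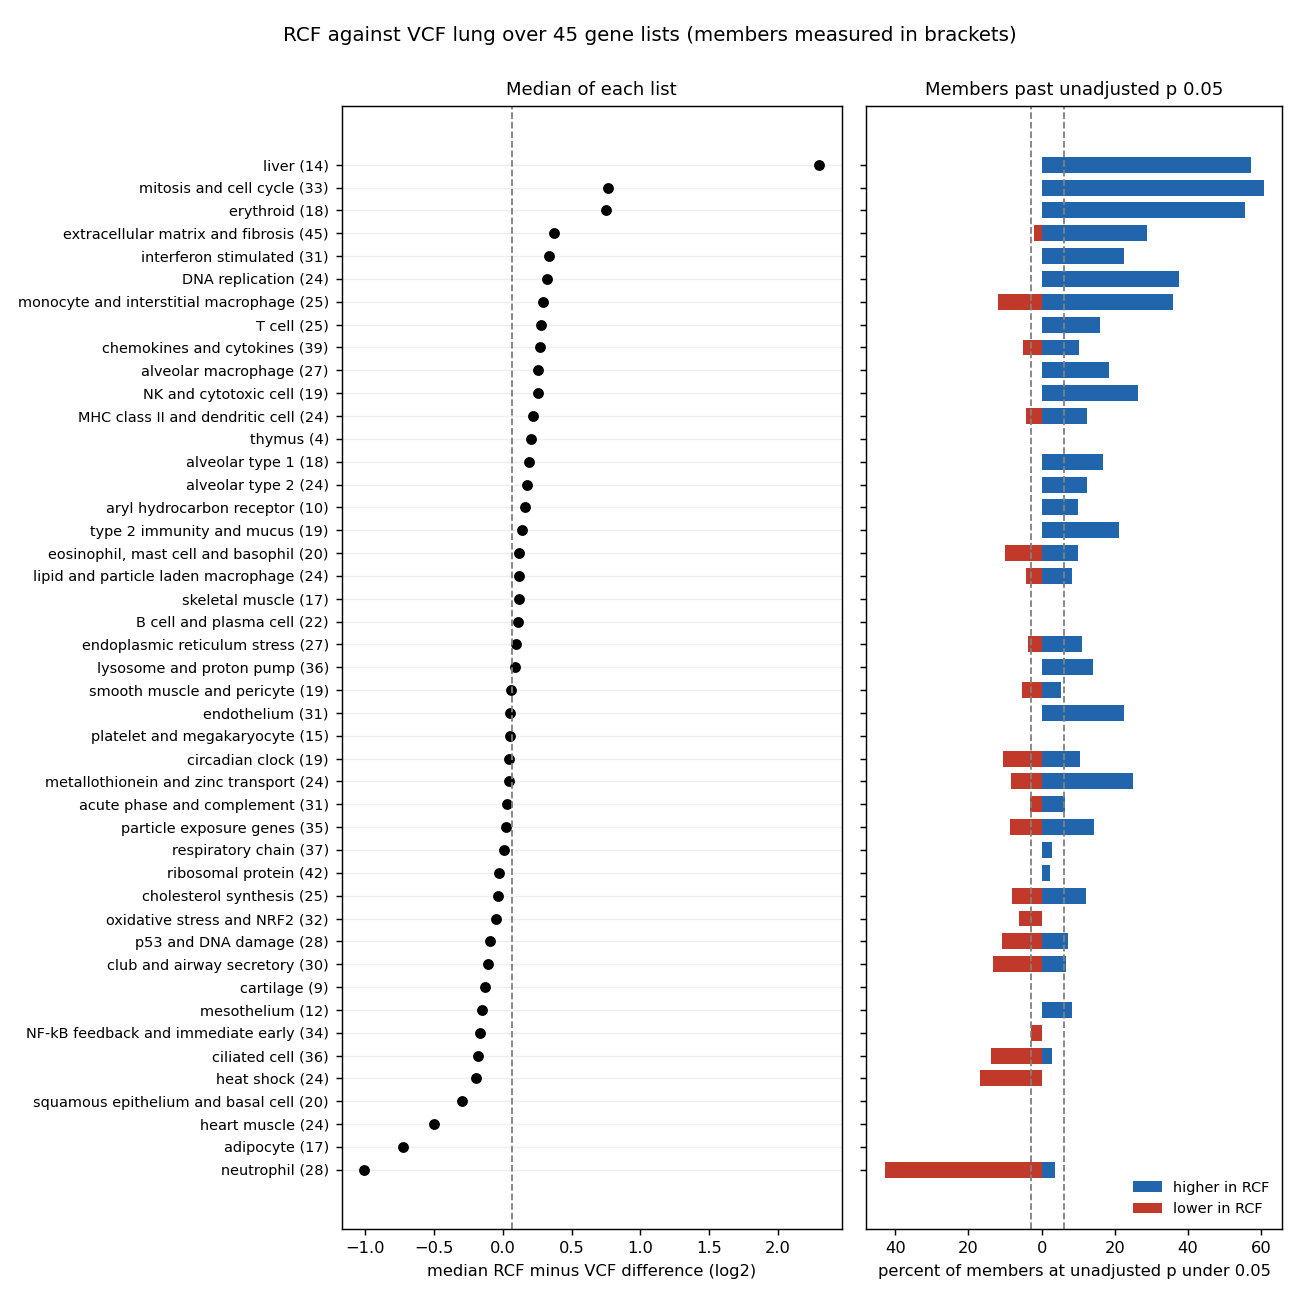
For each gene list the left panel gives the median difference RCF minus VCF in log2 and the right panel the percentage of measured members higher or lower at an unadjusted p under 0.05, with the shares over all genes (6.17% and 2.88%) as dashed lines. Liver, mitosis and erythroid genes lie furthest to the higher side and neutrophil genes furthest to the lower side.

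Lists of other neighbouring tissues differed by single arrays. The adipocyte list had a median of −0.73 with 0 of 17 members past an unadjusted p of 0.05, and 0.06 without VCF 2, where it stood at 2.11 against control. The heart muscle list had a median of −0.50 with 0 of 24 past it, and −0.15 without RCF 3.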

How the data were processed

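RNA of 14 mouse lungs was measured on 14 one-colour arrays, per the labels with Cy3. Per the file headers, Feature Extraction 10.7.3.1 made the deposited intensity values (62976 spots, 3671 controls), background-subtracted and not scaled between arrays. The authors' deposited table holds log2 values of 32177 probes, each column equal to log2 of the processed signal minus 1 constant per array. Here each array's 75th percentile over non-control spots was subtracted from log2 of its processed signal. Outlier spots were left out, and 37983 of 56605 probes were kept, namely those above background on 3 or more of 14 arrays. Of a gene's probes the one of highest mean stood for it, leaving 30579 genes (17290 with a symbol), 30574 of them tested. Probes without a symbol (23611 of the 56605 before the filter) stood alone where they were kept.

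Limma 3.58.1 in R 4.3.3 was fitted to all 14 arrays with 4 groups and no covariates. RCF minus VCF was tested two-sided with Benjamini-Hochberg adjustment and a threshold of 0.05, and was tested on simulated data first. The number of arrays limits the precision. Genes were named by a rule: those past the threshold, filled to 12 in each direction by p among genes whose groups do not overlap, and the 4 members of smallest p of each list. Predicted and clone symbols were passed over, and further list members were named after their values were seen. The comparison, the 45 lists (1209 entries, 1117 measured) and the members were chosen with earlier results of these data known. Where a gene was not above background in VCF, its fold was taken against the background level and is given as "at least".

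Same-numbered RCF and VCF arrays had residuals that correlated at 0.30, 0.20 and 0.21 for numbers 1 to 3. RCF 2 and VCF 3, of different numbers, correlated at 0.17. The main fit did not pair the arrays, and the replicate number was fitted as a block only as an alternative. The labels do not say what a number marks. The alternatives were the block, slide, brightness or array weights in the fit, other scalings and filters, the authors' values and fits without single arrays. Those on the likeness of RCF 1 and RCF 2, and the one without control 2, were chosen after seeing the data. The mean spot signal was not used here, so that normexp ran on the median signal. Promoter sequences come from a RefSeq table of GRCm38.p6.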

Additional observations from a re-analysis of the deposited data

Results flagged for a closer look

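Among the 5 control arrays, control 2 stood apart from the other 4 in 7 of the values examined, by the ratio of its gap to the group's range (critical value 0.71). Chance sets about 1 in 20 such groups apart. The report holds 45 lists besides the named genes, and whether 7 is more than chance gives was not tested. Control 2 entered the shared spread of the fit but neither group compared. Its level of Shcbp1 was −3.88. Its list medians, relative to the control mean, were 3.63 for skeletal muscle genes, 2.96 for genes of squamous epithelium and basal cells, 1.25 for liver genes and 0.71 for thymus genes. They were 0.23 for genes of oxidative stress and NRF2 and 0.27 for respiratory chain genes. Without control 2, 6 genes passed in RCF against VCF, 5 higher and 1 lower, including Ces2e, Kif20a and Adgre4 (limma adjusted p = 0.0257 each).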

How the results depend on the processing

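The count of genes past the threshold in RCF against VCF was 3. It was 0 with replicate number as a block (3027 genes at an unadjusted p under 0.05 in limma), with the 6 RCF and VCF arrays alone (2266), without both dim arrays (3046), with brightness as a covariate (3113), with quantile scaling (2771), with normexp and quantile scaling (2754) and with no filter on probes (2621). It was 0 also with RCF 1 and RCF 2 averaged (2111), with control 1 and 4 averaged too (2039) and without RCF 1 and 2 (1865). It was 7 with slide as a fixed block (Ces2e and Kif20a among them), 6 with probes above background on 5 of the 6 arrays, 6 without control 2, 1 with median scaling and 1754 with array quality weights, which gave RCF 2 a weight of 4.46 and RCF 1 one of 0.39. Without single RCF or VCF arrays it ran from 0 to 26. It was 1, 0 and 26 without RCF 1, 2 and 3 and 0 without VCF 1, 2 or 3 in turn. The 1 gene without RCF 1 was not among the 3 of the main fit. Of the 26 genes without RCF 3, 10 were in the liver list or were urinary protein genes, and others that the list does not hold, such as Bhmt and Apoh (named after their values were seen), are known from liver too. With slide as a random block the count was 2, both among the 3 of the main fit. With the authors' values it was 3, of which 2 were among those of the main fit. In the main fit no other named gene passed in RCF against VCF. Some did under alternatives, such as Alb and Mup19 without RCF 3 (limma adjusted p = 0.00425 and 0.0107). The comparisons with control were not refitted with the replicate block. RCF 1 and VCF 1, at 6.25 and 4.78 times the negative control signal, set the lowest levels that could be measured.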
